A study of Mus musculus with 12 samples.

Results

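The expression of 30 genes of spermatogonial stem cells and of spermatogonial differentiation was examined in testes of F1 mice given virus meant to raise or lower the long non-coding RNA lncRNA8276. The genes were taken as the rows of the deposited gene table whose symbol was on a list of 30 names, and all 30 were found among the 20788 genes of the table. RNA sequencing had been done on 12 libraries in 4 groups of 3. The 8276OV group received virus for overexpression of lncRNA8276, 5NC is taken as its control, the 8276KD group received virus for inhibition of lncRNA8276, and 3NC is taken as the control of that group. All 4 groups share the strain, labelled IRC mouse, the F1 generation, the tissue and total RNA as the molecule. The order in which the study's design text lists the groups is the basis for setting 8276OV against 5NC and 8276KD against 3NC. The sources used here do not give the age of the mice, the vector, its promoter or dose, or whether the control groups received virus. Nor do the labels tie the 3 libraries of a group to different mice, and every p-value therefore rests on a spread between libraries that may be technical. No value of lncRNA8276 itself is used here, so that no check of the labels against their target was made.

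Spermatogonia lie at the base of the seminiferous tubule, where a small pool renews itself and the rest go on to become sperm. Self-renewal in the mouse depends on GDNF, a growth factor of Sertoli cells, which binds GFRA1 and signals through RET to transcription factors such as ETV5, BCL6B and LHX1. Retinoic acid then moves the cells to the differentiating state, marked by KIT and STRA8, under factors such as SOHLH1 and SOHLH2, and from there to meiosis.

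Between 13485479 and 15771655 counts were assigned to genes in a library, with 18616 to 18889 genes detected. The 30 genes together held 0.0855% of all counts, and Dmrtb1 alone held 74.6% of that share. Marker genes of the cells of a whole testis were present in every library, with summed levels of 11728 to 17498 CPM (counts scaled to a common library size) for spermatid markers, 2542 to 3189 CPM for meiotic markers, 726.3 to 993.4 CPM for Sertoli cell markers and 962.5 to 2205 CPM for Leydig cell markers. The library 3NC T2 stood apart, with 764.0 CPM over the 9 macrophage and leukocyte markers against 73.2 to 117.3 CPM in the other 11 libraries. Of the epididymis markers, Lcn8 was at 40.7 CPM and Defb20 at 45.1 CPM in 8276KD T1, and Lcn9, Spink12 and Adam28 were also highest there, while none of these 5 exceeded 0.713 CPM in any other library. Crisp1 was at 165.5 CPM in 8276KD T1, at 240.0 and 98.9 CPM in 5NC T2 and T3 and at no more than 61.98 CPM elsewhere, and Aqp9 was at 64.7 to 102.2 CPM in every library. In bulk RNA of this kind, fewer cells of a type and less RNA per cell cannot be told apart.

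Levels of the 30 genes spanned a wide range. Compared per transcript length as FPKM, the deposited values scaled for length and depth, the mean over 12 libraries was 365 ± 34.6 (SD) for Dmrtb1, which encodes a DM-domain factor of late spermatogonia, and 98.9% of the genes in the table had a lower mean. Next came Uchl1, a ubiquitin hydrolase gene strongly expressed in spermatogonia, at 26.4 ± 3.13 FPKM, and Id4, an inhibitor of basic helix-loop-helix factors that marks stem cells, at 18.3 ± 3.01 FPKM. Dmrt1, a DM-domain factor that holds back meiosis, followed at 9.37 ± 0.677 FPKM. Stra8, the gene that retinoic acid switches on before meiosis, was at 9.03 ± 1.31 FPKM, so that these neighbours did not differ beyond their spread. A middle range of 14 genes ran from 5.94 FPKM for Sohlh2, a partner of SOHLH1, down to 1.145 FPKM for Bcl6b. It included the receptor genes Kit (5.498 ± 0.681 FPKM) and Gfra1 (3.03 ± 0.324 FPKM).

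The lowest 11 genes had means under 1 FPKM. Among them were well-known stem cell genes. Zbtb16, which encodes the zinc finger factor PLZF, was at 0.768 ± 0.136 FPKM and Ret, the signalling receptor for GDNF, at 0.340 ± 0.0776 FPKM. Neurog3, a factor of progenitors about to differentiate, was at 0.204 ± 0.0971 FPKM. At the bottom were Eomes, a T-box factor of a stem cell subset, at 0.0917 ± 0.0863 FPKM, Nanos2, an RNA-binding protein that keeps stem cells undifferentiated, at 0.0483 ± 0.0341 FPKM, and T, the T-box factor brachyury, at 0.0358 ± 0.0385 FPKM. The plot of levels by library shows the spread of each gene beside this order.

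**Figure D1:**
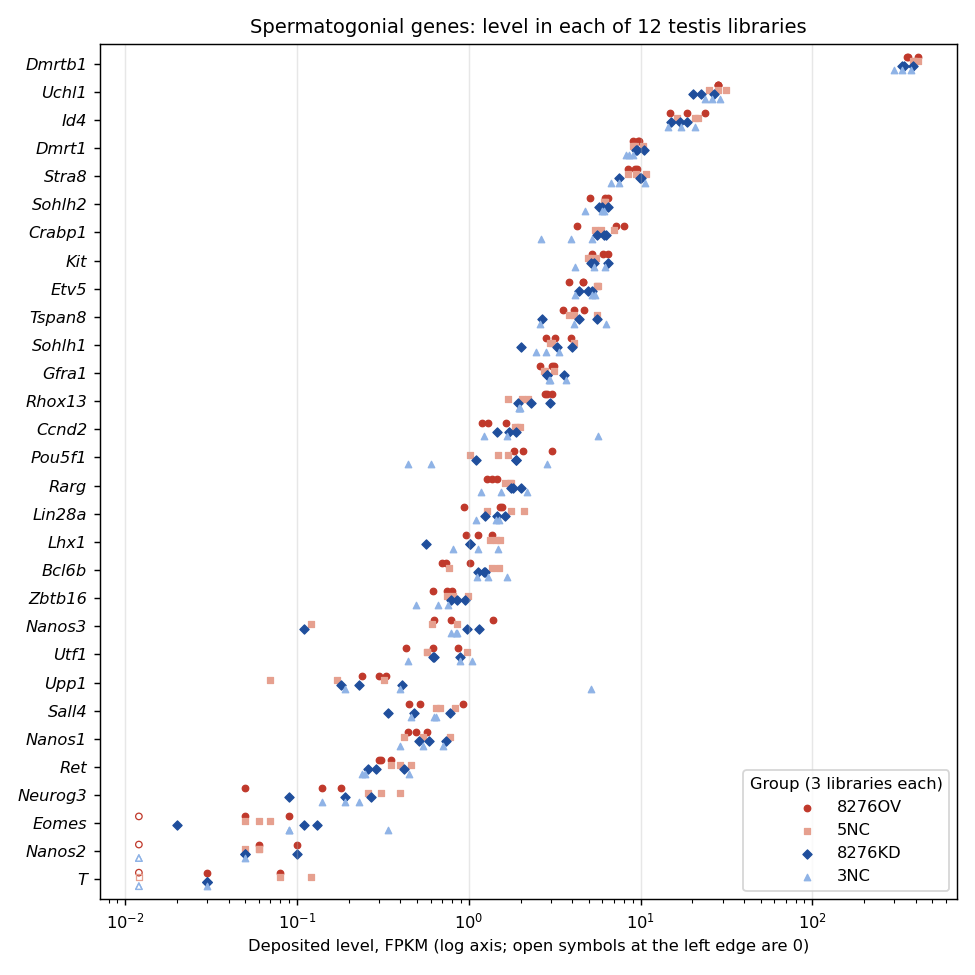
Deposited FPKM of each of the 30 genes (rows, ordered by mean) in each of the 12 libraries on a log axis, with 8276OV, 5NC, 8276KD and 3NC as separate symbols and open symbols at the left edge for values of 0. Dmrtb1 sits near 365 FPKM and T near 0.0358 FPKM, and the symbols of the groups overlap for most genes, with single libraries far to one side for Upp1 and Ccnd2 (both high in 3NC T2) and for Nanos3.

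Not all of the low genes could be tested. A filter on low counts kept 25 of the 30 genes, and Upp1, Neurog3, Eomes, Nanos2 and T did not pass it. Nanos2 had 3 counts in 8276OV against 3 in 5NC, and 4 counts in 8276KD against 1 in 3NC, summed over 3 libraries. T had 3 counts in 8276OV against 4 in 5NC, and 3 counts in 8276KD against 1 in 3NC. At this depth no difference was detectable for either gene.

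Upstream sequences from RefSeq were available for 24 of the 30 genes. The 250 bases before the transcription start of the RefSeq promoter table are printed here for Rhox13, Etv5 and Crabp1, the genes whose groups differed at an unadjusted p below 0.05 with all libraries in any comparison below, for Pou5f1, whose groups did not overlap, and for Stra8, the retinoic acid target of the list. All are on GRCm38.p6 and read 5′ to 3′ in the direction of the gene. They cover chrX:38120590-38120839 on the plus strand for Rhox13, chr16:22439571-22439820 on the minus strand for Etv5 and chr9:54764498-54764747 on the plus strand for Crabp1. For Pou5f1 the window is chr17:35505782-35506031 and for Stra8 chr6:34920698-34920947, both on the plus strand. The Stra8 window lies inside the span that RefSeq gives the gene, which begins at 34920163. Capitals mark matches to the motifs described after the sequences.
Rhox13: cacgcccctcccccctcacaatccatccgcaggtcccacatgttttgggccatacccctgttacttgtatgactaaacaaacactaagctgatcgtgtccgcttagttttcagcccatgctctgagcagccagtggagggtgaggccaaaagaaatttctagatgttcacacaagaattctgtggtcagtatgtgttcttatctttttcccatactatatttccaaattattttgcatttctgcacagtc
Etv5: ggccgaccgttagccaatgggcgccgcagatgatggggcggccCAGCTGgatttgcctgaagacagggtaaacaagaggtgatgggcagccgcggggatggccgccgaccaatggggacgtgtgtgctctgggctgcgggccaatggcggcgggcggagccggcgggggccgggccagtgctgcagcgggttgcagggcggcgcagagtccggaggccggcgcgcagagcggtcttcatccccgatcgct
Crabp1: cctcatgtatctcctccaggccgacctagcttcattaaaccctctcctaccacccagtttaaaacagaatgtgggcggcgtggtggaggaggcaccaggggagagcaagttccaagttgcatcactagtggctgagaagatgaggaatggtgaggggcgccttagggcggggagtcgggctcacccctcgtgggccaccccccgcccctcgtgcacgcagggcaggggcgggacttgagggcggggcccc
Pou5f1: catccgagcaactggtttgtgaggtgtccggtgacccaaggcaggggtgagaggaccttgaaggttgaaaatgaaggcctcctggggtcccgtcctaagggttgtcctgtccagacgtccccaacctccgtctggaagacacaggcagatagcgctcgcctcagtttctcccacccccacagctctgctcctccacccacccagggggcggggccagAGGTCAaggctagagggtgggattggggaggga
Stra8: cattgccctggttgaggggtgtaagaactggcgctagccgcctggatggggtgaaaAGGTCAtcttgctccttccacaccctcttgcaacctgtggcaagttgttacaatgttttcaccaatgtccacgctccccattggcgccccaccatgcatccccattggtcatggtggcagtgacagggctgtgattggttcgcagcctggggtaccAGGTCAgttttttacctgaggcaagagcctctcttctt

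Each window was searched on both strands for AGGTCA, the core letters of sites bound by retinoic acid receptors among other nuclear receptors, for the E-boxes CAGCTG and CACGTG, which read the same on both strands, and for CCGGAAGT, a site of the ETS family to which ETV5 belongs. None of these motifs contains another. AGGTCA was present in 4 of 24 windows, those of Pou5f1, Rarg, Sohlh1 and Stra8, and in 12.01% of the windows of 12980 tested genes. The Stra8 window holds it at both marked places. CAGCTG was present in 7 of 24 windows (Dmrtb1, Etv5, Gfra1, Nanos1, Neurog3, T and Upp1) and in 11.7% of all, CACGTG in 1 (Sohlh1) and in 7.82% of all, and CCGGAAGT in 0 of 24 and in 5.01% of all. Rhox13 and Crabp1 held no match in this window. The ratio of observed to expected CpG was above 0.6, a common mark of a CpG island, in 8 of 24 windows (33.3%) and in 57.7% of all, while the median GC content was 62.6% in the 24 windows and 58.4% in all. The 24 windows include those of Upp1, Neurog3, Eomes, Nanos2 and T, which did not pass the filter, while the 12980 hold tested genes only. These counts describe the sequences and were not tested.

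The comparison of 8276OV with 5NC asks which genes differ when lncRNA8276 is raised. None of the 25 genes passed edgeR's quasi-likelihood test at an adjusted p of 0.05, where 0.476% of all 16395 tested genes did (0.256% higher, 0.22% lower). DESeq2 and limma-voom also called 0 of the 25, but DESeq2 gave no adjusted p for Rhox13 or Pou5f1 and so did not judge them. At an unadjusted p below 0.05 stood Rhox13, higher in 8276OV (8.9% of all tested genes), and Etv5, lower in 8276OV (6.39% of all). That is 2 of 25 genes where 15.3% of all tested genes reached the level. With 3NC T2 left out of the shared fit, a library that neither group holds, Ccnd2 and Bcl6b joined them, which made 4 of 25 where 19.2% of all reached it. The median log2 fold change of the 25 genes was -0.03, with 9 above 0 and 16 below, against -0.012 and 48.0% above 0 for all tested genes. The values ran from -0.52 for Bcl6b, a transcription factor that GDNF induces, to 0.86 for Nanos3, an RNA-binding protein of germ cells, whose counts were between 1 and 16 in a library.

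Rhox13, an X-linked homeobox gene of the Rhox cluster expressed in differentiating spermatogonia and spermatocytes, lies on chromosome X at 38120840 to 38129966 on GRCm38. It had 3.29, 3.08 and 3.58 normalised CPM in 8276OV, against 2.45, 1.84 and 2.23 CPM in 5NC. All 3 libraries of 8276OV lay above all 3 of 5NC. The means were 3.32 ± 0.250 CPM in 8276OV and 2.17 ± 0.312 CPM in 5NC (SD, n = 3 each), from 42 to 54 counts in a library of 8276OV and 26 to 39 in a library of 5NC. The log2 fold change was 0.61 ± 0.21 (SE; 95% interval 0.14 to 1.07), with an adjusted p of 0.191 by edgeR's quasi-likelihood test, which does not pass. In 8276KD it had 2.17, 2.59 and 3.30 CPM, against 2.26, 2.07 and 2.30 CPM in 3NC, which overlap (0.28 ± 0.21). The test of the difference between these effects gave 0.32 ± 0.30 (edgeR, adjusted p = 0.871).

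Etv5, an ETS factor that GDNF signalling induces and that stem cells need to persist in the mouse testis, lies on chromosome 16 at 22381313 to 22439570. It had 17.5, 17.0 and 14.6 CPM in 8276OV, against 20.3, 20.05 and 20.6 CPM in 5NC. The 3 libraries of 5NC lay close together and above all 3 of 8276OV. The log2 fold change was -0.31 ± 0.12 (95% interval -0.56 to -0.060), with an adjusted p of 0.217 by edgeR. In 8276KD it had 19.3, 18.3 and 16.1 CPM, against 19.6, 19.0 and 16.2 CPM in 3NC, with a log2 fold change of -0.025 ± 0.12. The difference between the effects was -0.29 ± 0.16 (edgeR, adjusted p = 0.777). Other genes downstream of GDNF had intervals that included 0: Bcl6b, which lay at 2.497, 3.30 and 2.39 CPM in 8276OV against 4.46, 2.47 and 4.82 CPM in 5NC, overlapped between the groups, and Lhx1 had a log2 fold change of -0.25 ± 0.27.

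A further pair of genes did not overlap between 8276OV and 5NC without reaching an unadjusted p of 0.05, which brings the non-overlapping genes with a log2 fold change of at least 0.3 in size to 4 of 25, where 12.7% of all tested genes met the same rule (7.31% higher, 5.43% lower). Pou5f1, which encodes the pluripotency factor OCT4 and whose sequence also occurs in pseudogenes, lies on chromosome 17 at 35506032 to 35510777. It had 3.68, 2.20 and 2.12 CPM in 8276OV, against 1.57, 1.98 and 1.22 CPM in 5NC (log2 fold change 0.75 ± 0.58). Its range within 3NC alone was wider, at 0.730, 0.501 and 3.65 CPM, so the difference was smaller than the spread between replicates elsewhere (edgeR, adjusted p = 0.610). Ccnd2, the D-type cyclin that drives spermatogonia into division, lies on chromosome 6 at 127125162 to 127152188. It had 7.75, 9.69 and 7.23 CPM in 8276OV, against 10.7, 11.1 and 11.7 CPM in 5NC, a log2 fold change of -0.44 ± 0.43 (edgeR, adjusted p = 0.713). The error shrank when 3NC T2 was left out of the fit, to -0.44 ± 0.15 (edgeR, adjusted p = 0.138).

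**Figure D2:**
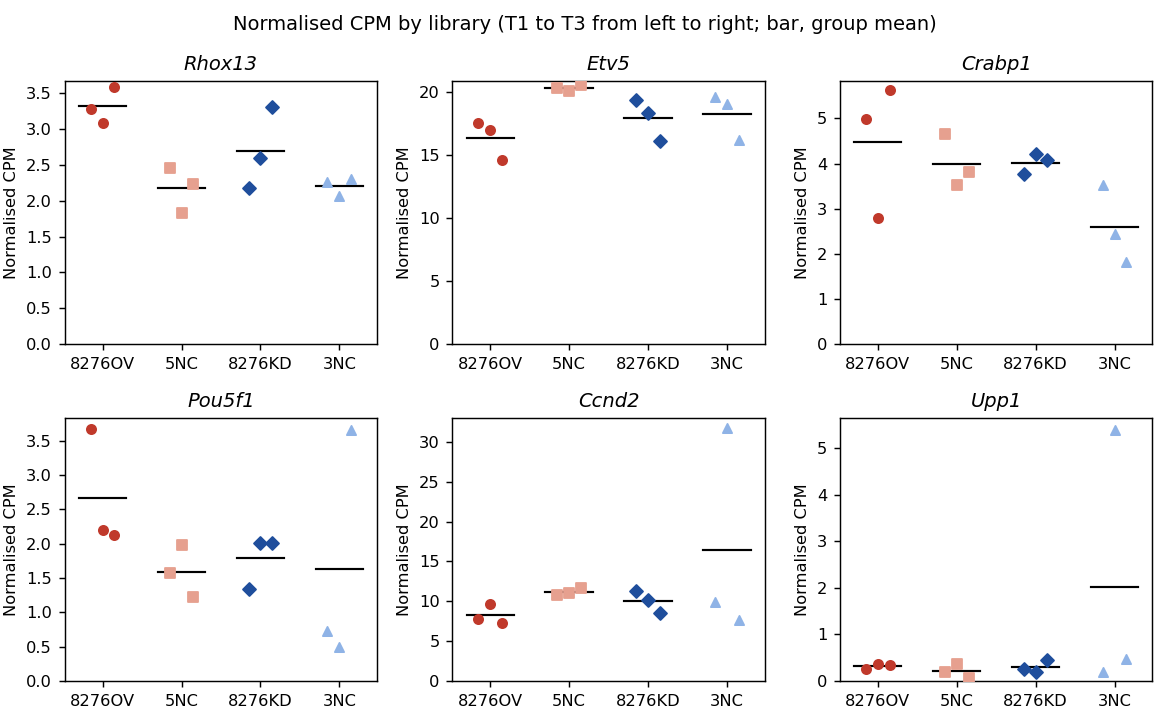
Normalised CPM of Rhox13, Etv5, Crabp1, Pou5f1, Ccnd2 and Upp1 (panels, linear axes from 0) in the libraries of 8276OV, 5NC, 8276KD and 3NC, with T1 to T3 from left to right and the group mean as a bar. Rhox13 lies at 3.08 to 3.58 CPM in 8276OV and at 1.84 to 2.45 CPM in 5NC, and 1 library of 3NC, T2, stands far above the rest for Ccnd2 (31.8 CPM) and Upp1 (5.38 CPM).

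By role, the genes differed in sign within each of the following sets in 8276OV against 5NC. Of the 5 differentiation factors (Sohlh1, Sohlh2, Dmrt1, Dmrtb1 and Rhox13), 2 had a log2 fold change above 0 and 3 below. Their summed level was 682.8, 652.6 and 795.8 CPM in 8276OV, against 768.2, 680.4 and 696.3 CPM in 5NC. Dmrtb1 alone made up most of each of these sums, which therefore say little about the other genes of the set. Of the 8 tested stem and progenitor factors, 2 were above 0 and 6 below, and all 11 of the list, the untested 3 included, summed to 65.4, 69.1 and 53.5 CPM in 8276OV, against 66.0, 69.0 and 70.3 CPM in 5NC. The 4 surface genes Gfra1, Ret, Kit and Tspan8 summed to 47.0, 52.8 and 50.4 CPM in 8276OV, against 44.5, 43.8 and 49.6 CPM in 5NC. Of these 4, Kit, the receptor that marks differentiating spermatogonia, was the highest at 0.23 ± 0.13 (95% interval -0.055 to 0.52) and Ret the lowest at -0.27 ± 0.26. The retinoic acid genes Stra8, Rarg and Crabp1 had log2 fold changes of -0.026, -0.27 and 0.16. Sums of all 3 sets overlapped between 8276OV and 5NC.

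Neurog3 was too low for the test but had more counts in 5NC. It had 4, 1 and 3 counts in 8276OV, against 9, 5 and 6 counts in 5NC, and every library of 5NC was above every library of 8276OV. The ratio of summed counts was 0.40 (95% counting interval 0.15 to 0.95). This interval covers counting error only and not the spread between libraries. In the other comparison Neurog3 had 12 summed counts in 8276KD against 12 in 3NC. Between the control groups it had 20 summed counts in 5NC against 12 in 3NC (ratio 1.74, 95% counting interval 0.81 to 3.90). Neurog3 was picked from the genes that did not pass the filter, and the share of such genes with the same pattern was not computed.

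The comparison of 8276KD with 3NC asks which genes differ when lncRNA8276 is lowered. None of the 25 genes passed at an adjusted p of 0.05 in edgeR, where 0.0183% of all tested genes did (0.0122% higher, 0.0061% lower), and DESeq2 and limma-voom called 0 as well. Crabp1 was the 1 gene at an unadjusted p below 0.05, where 8.69% of all tested genes reached that level (3.25% higher, 5.43% lower). It was also the 1 gene whose groups did not overlap with a log2 fold change of at least 0.3 in size, where 6.36% of all met that rule (3.31% higher, 3.04% lower). The median log2 fold change of the 25 genes was 0.090, with 16 above 0 and 9 below, against -0.025 and 45.3% above 0 for all tested genes.

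Crabp1, which encodes a cytosolic protein that binds retinoic acid, lies on chromosome 9 at 54764748 to 54773110. It had 3.77, 4.21 and 4.08 CPM in 8276KD, against 3.52, 2.44 and 1.83 CPM in 3NC. The libraries of 8276KD lay close together, just above the highest library of 3NC. The means were 4.02 ± 0.229 CPM in 8276KD and 2.59 ± 0.855 CPM in 3NC (SD, n = 3 each), and the log2 fold change was 0.63 ± 0.29 (95% interval 0.0088 to 1.25; adjusted p = 0.559 by edgeR). Against the same 3 libraries of 3NC, 5NC gave nearly the same value, with 4.65, 3.53 and 3.81 CPM in 5NC and a log2 fold change of 0.62 ± 0.29 (edgeR, adjusted p = 0.386). Both comparisons share 3NC, where Crabp1 was low in T3. Without 3NC T2 the values were 0.59 ± 0.32 in 8276KD and 0.58 ± 0.32 in 5NC, both against 3NC, and neither was at an unadjusted p below 0.05 (0.088 and 0.091 in edgeR). In 8276OV the gene had 4.99, 2.79 and 5.64 CPM and overlapped all 3 other groups.

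The other retinoic acid genes did not pass in this comparison. Stra8 was at 9.83, 13.4 and 13.5 CPM in 8276KD, against 9.02, 13.5 and 10.5 CPM in 3NC, and the groups overlapped (0.16 ± 0.17). Rarg, the retinoic acid receptor of undifferentiated spermatogonia that are ready to respond, was at 4.85, 4.73 and 5.25 CPM in 8276KD, against 4.11, 5.45 and 3.25 CPM in 3NC (0.21 ± 0.19). Its highest value was in 3NC T2, and without that library the log2 fold change of Rarg was 0.42 ± 0.17, at an unadjusted p of 0.028 (edgeR, adjusted p = 0.803), and that of Stra8 0.33 ± 0.17 (edgeR, adjusted p = 0.803). Rarg was then the 1 gene of the 25 at an unadjusted p below 0.05, where 6.11% of all tested genes reached that level. All 5 differentiation factors had log2 fold changes above 0, from 0.090 for Dmrtb1 to 0.28 for Rhox13, and none reached an unadjusted p of 0.05. Without the library 3NC T2, 2 of the 5 were above 0 and 3 below, from -0.045 to 0.24. Dmrtb1, Dmrt1 and Sohlh2 each had their lowest value of all 12 libraries in 3NC T2, the library with 764.0 CPM of leukocyte markers, at 484.8, 16.2 and 10.02 CPM. Id4 and Pou5f1 were also lowest there. The part of the leukocyte signal in these low values was not tested.

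Ccnd2 was highest in the same library. It had 11.2, 10.2 and 8.55 CPM in 8276KD, against 9.95, 31.8 and 7.64 CPM in 3NC, where T2 held 508 counts and T1 and T3 held 150 and 113. The log2 fold change was -0.72 ± 0.43 with all libraries (edgeR, adjusted p = 0.579) and 0.18 ± 0.17 without 3NC T2 (adjusted p = 0.860). Upp1, which encodes uridine phosphorylase, had 4, 3 and 7 counts in 8276KD, against 3, 86 and 7 counts in 3NC. Its ratio of summed counts was 0.14 (95% counting interval 0.075 to 0.25), and 0.90 (0.37 to 2.26) without 3NC T2. Eomes had 1, 5 and 7 counts in 8276KD, against 5, 17 and 5 counts in 3NC, a ratio of 0.47 (0.22 to 0.95) and without 3NC T2 of 0.83 (0.34 to 2.12). Without that library, the 95% interval for each of these 3 genes included no difference. All 9 leukocyte markers were detected, and Ptprc, the leukocyte antigen CD45, was at 95.5 CPM in 3NC T2 against 1.98 to 3.89 CPM in the other libraries.

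None of the stem cell factors or GDNF receptors passed in 8276KD against 3NC. All 11 stem and progenitor factors summed to 57.7, 62.2 and 63.0 CPM in 8276KD, against 64.5, 57.2 and 65.5 CPM in 3NC, and of the 8 tested ones 3 had log2 fold changes above 0 and 5 below. Zbtb16 had the highest value, at 0.38 ± 0.23 (95% interval -0.11 to 0.88), and Lhx1 the lowest, at -0.40 ± 0.28 (-1.01 to 0.21). Across the 12 libraries, Zbtb16 was lowest in 3NC T3 and Lhx1 in 8276KD T1. Gfra1 was at -0.077 ± 0.15. Ret was at 0.068 ± 0.26, and at 0.33 ± 0.25 without 3NC T2. The RNA-binding genes Nanos1, Nanos3 and Lin28a, the last of which encodes a repressor of let-7 miRNAs found in undifferentiated spermatogonia, lay between -0.075 and 0.15.

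**Figure D3:**
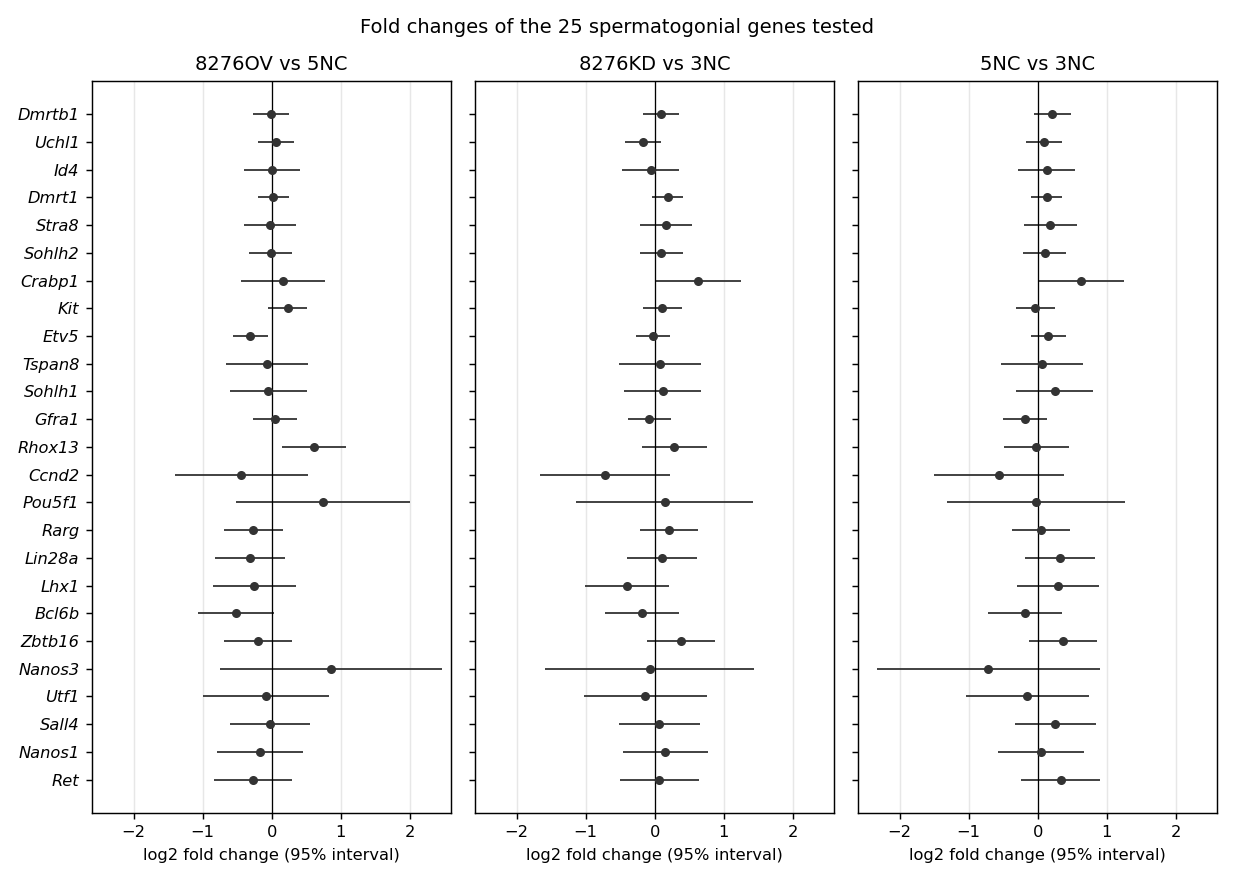
Log2 fold change (points) and 95% interval (lines) of the 25 tested genes, ordered by level, for 8276OV against 5NC, 8276KD against 3NC and 5NC against 3NC. Most intervals include 0, with the exceptions of Rhox13 (0.14 to 1.07) and Etv5 (-0.56 to -0.060) in the first panel and Crabp1 in the other two, and the widest are those of Nanos3, Pou5f1 and Ccnd2.

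The precision of these values sets what could have been seen. The 95% interval of a log2 fold change reached a median of 0.51 to either side in each of the 3 comparisons of groups, from 0.22 for Dmrt1 to 1.61 for Nanos3 in 8276OV against 5NC. The interval lay wholly within a 2-fold change in either direction for 20 of 25 genes in 8276OV against 5NC and for 19 in 8276KD against 3NC. It lay within a 1.5-fold change for 9 genes in each. Dmrtb1, the most abundant gene, was at 641.1, 612.4 and 756.8 CPM in 8276OV, against 728.2, 640.5 and 658.8 CPM in 5NC. Its interval ran from -0.28 to 0.25 in 8276OV against 5NC and from -0.17 to 0.36 in 8276KD against 3NC. A gene with an adjusted p above 0.05 is not thereby shown to be at the same level in both groups.

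The control groups were compared to show how far the same genes differ without a change in lncRNA8276 that the labels name. None of the 25 genes passed between 5NC and 3NC in edgeR, where 0.244% of all tested genes did (0.0915% higher, 0.152% lower), and DESeq2 and limma-voom called 0. Crabp1, given above, was the 1 gene at an unadjusted p below 0.05, a level that 12.9% of all tested genes reached (5.01% higher, 7.87% lower). It was the 1 gene whose groups did not overlap by the same rule, which 7.92% of all met (3.57% higher, 4.35% lower). The median log2 fold change was 0.100, with 17 above 0 and 8 below, against -0.018 and 46.6% above 0 for all tested genes. Ccnd2 was at -0.56 ± 0.43 in 5NC against 3NC, and at 0.34 ± 0.17 without 3NC T2 (edgeR, adjusted p = 0.367). Without that library Ret was the 1 gene at an unadjusted p below 0.05, at 0.59 ± 0.25 (edgeR, adjusted p = 0.276), where 15.6% of all reached it. Since 5NC enters this comparison and that of 8276OV, and 3NC enters this one and that of 8276KD, the comparisons are not independent of each other.

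A test of the difference between the effects of 8276OV and 8276KD, each against its control, called 0 of the 25 genes in edgeR, DESeq2 and limma-voom, where 0.0183% of all tested genes were called by edgeR. At an unadjusted p below 0.05 there were 0 of the 25, where 6.73% of all tested genes reached that level (3.93% higher, 2.8% lower). The median difference was -0.11 (10 above 0, 15 below), against 0.028 and 54.7% above 0 for all tested genes. Zbtb16 had the lowest value, -0.58 ± 0.32 (edgeR, adjusted p = 0.772). Rarg was at -0.48 ± 0.28 and Crabp1 at -0.47 ± 0.40, and all 3 retinoic acid genes were below 0. Without 3NC T2, 2 of the 25 were at an unadjusted p below 0.05, where 10.6% of all tested genes were. They were Rarg at -0.69 ± 0.23 (edgeR, adjusted p = 0.3005) and Ccnd2 at -0.62 ± 0.23 (edgeR, adjusted p = 0.357), which with all libraries was at 0.28 ± 0.61. Intervals with all libraries were wider here, with a median of 0.72 to either side.

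Genes differed in how far they varied within their own group. The spread within groups was set against counting noise as a chi-square per degree of freedom, which is about 1 where libraries differ by counting alone. The median over the 25 genes, Dmrtb1 included, was 2.67, against 4.80 for all tested genes. It was 2.91 for the tested genes whose total count lay anywhere in the range of the 25 genes without Dmrtb1. These genes were not matched to the 25 on count within that range. Rhox13 had the lowest value, 0.737, and Utf1, a chromatin factor of undifferentiated spermatogonia, had 1.14. Dmrt1 and Rarg had 1.29 each. The highest values were those of Dmrtb1 (118), whose many counts make small differences visible, Ccnd2 (42.6), Id4 (13.7) and Pou5f1 (9.02). In all, 17 of the 25 genes varied beyond counting noise at an unadjusted p below 0.05 by the chi-square test, as did 77.5% of all tested genes.

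No library held the highest or the lowest level of most of the 25 genes. The summed level of all 30 genes, most of it from Dmrtb1, was lowest in 3NC T2. It was 718.5 CPM there, against 800.5 to 967.1 CPM in the other libraries. The heat map of deviations shows no column of one colour. Of the 25 genes, 6 had their highest level in 5NC T1, among them Stra8, Zbtb16, Ret and Uchl1, and no gene had its lowest there. In 3NC T3, 5 genes had their lowest level, namely Crabp1, Kit, Rarg, Zbtb16 and Ret. In 3NC T2, 5 genes were at their lowest and 3 (Ccnd2, Rarg and Bcl6b) at their highest. Id4 ranged from 20.7 to 35.9 CPM and Uchl1 from 20.5 to 31.5 CPM over the 12 libraries. In 8276KD T1, 4 genes were at their lowest (Uchl1, Tspan8, Lhx1 and Sall4) and 1, Dmrt1, at its highest. Epididymis markers were at 361.3 CPM in that library and Leydig cell markers at their minimum of 962.5 CPM. Epididymis markers also reached 340.0 CPM in 5NC T2, of which Crisp1 held 240.0 and Aqp9 99.8 CPM, with Lcn8 at 0 CPM. Leydig cell markers were at 1090 CPM in 3NC T3. The part of the mix of cells in the 4 lowest values of 8276KD T1 was not tested.

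**Figure D4:**
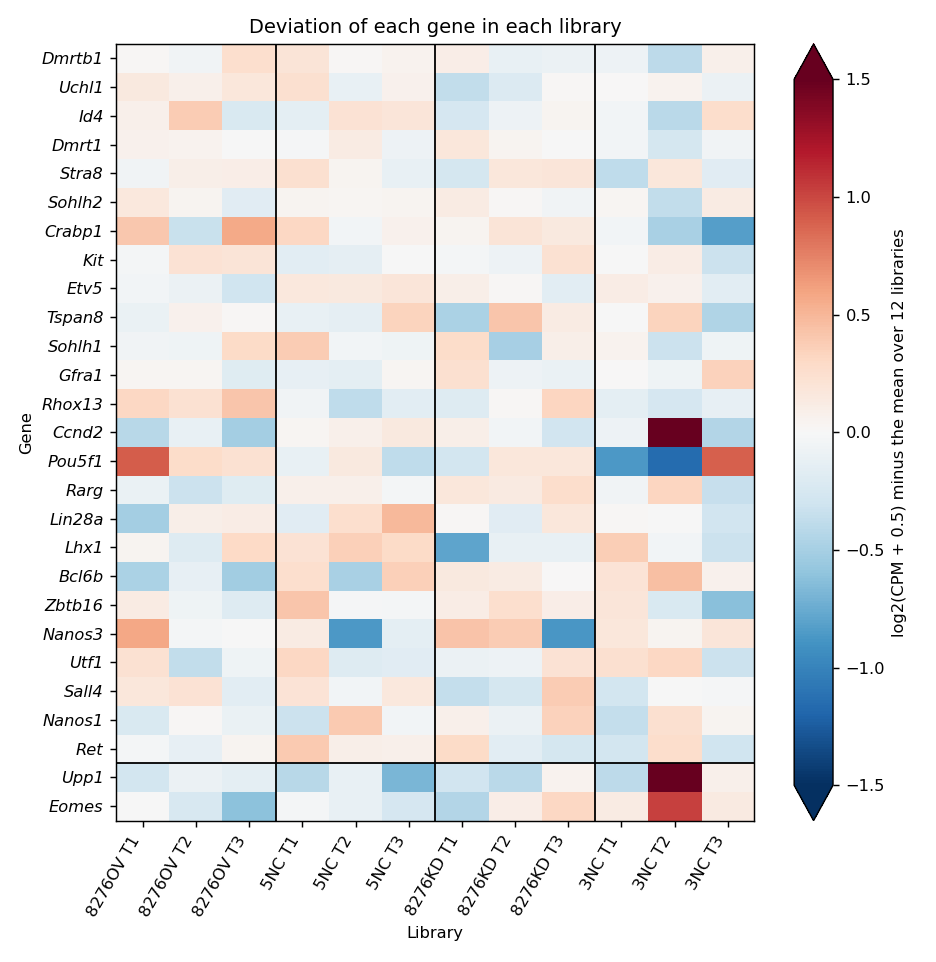
Log2 of CPM plus 0.5 minus the gene's mean over 12 libraries, by gene (rows, ordered by level, with the untested Upp1 and Eomes at the bottom) and library (columns, from 8276OV to 3NC), in red where above and blue where below the mean. The darkest red cells are Ccnd2 and Upp1 in 3NC T2, where Pou5f1 is blue, and no group is of one colour across the genes.

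The deposited FPKM and the counts did not always order libraries alike. The ratio of CPM to FPKM gives the transcript length behind each FPKM value, and it was nearly the same in all libraries for most of the 30 genes. For Sall4, a zinc finger factor of undifferentiated spermatogonia, it ran from 2982 to 4968 bases, a 1.67-fold range. For Nanos3 the range was 1.45-fold and for Zbtb16 1.25-fold. Folds and tests are therefore given on counts, and for these genes FPKM is used for the order of levels only. All 30 genes had whole counts in every library.

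Other genes of the same pathways, none of them among the 30, were taken from 3 lists. Of the genes that pass the filter on low counts there were 19 of 24 niche ligands and receptors, 18 of 20 genes of retinoic acid synthesis, breakdown and reception, and 29 of 30 other spermatogonial genes. In edgeR, 0 genes of any list passed in any of the comparisons. At an unadjusted p below 0.05 between 8276OV and 5NC there were 1 niche gene, 2 retinoic acid genes and 2 other spermatogonial genes, where 15.3% of all tested genes reached that level. Their median log2 fold changes in 8276OV against 5NC were 0.0049, 0.042 and -0.025, in the order of the lists, and in 8276KD against 3NC they were -0.074, 0.092 and 0.024. The medians of all tested genes were -0.012 in 8276OV against 5NC and -0.025 in 8276KD against 3NC.

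The genes nearest to the threshold were in the comparison of 8276OV with 5NC. Esx1, an X-linked homeobox gene of male germ cells, was at 21.2, 13.4 and 26.9 CPM in 8276OV, against 9.87, 7.62 and 7.91 CPM in 5NC (log2 fold change 1.27 ± 0.28; edgeR, adjusted p = 0.0740), and DESeq2 called it (adjusted p = 0.0014). Rxra, the retinoid X receptor with which retinoic acid receptors pair, was at 28.4, 20.05 and 25.996 CPM in 8276OV, against 13.7, 10.6 and 12.4 CPM in 5NC (1.02 ± 0.26; edgeR, adjusted p = 0.0993), and DESeq2 called it too (0.0080). Stra6, a membrane receptor for retinol uptake, had 6.86 ± 1.02 CPM in 8276OV and 4.15 ± 0.2397 CPM in 5NC (SD, n = 3 each), a log2 fold change of 0.72 ± 0.17 (edgeR, adjusted p = 0.0811; DESeq2 0.021). All 3 libraries of 8276OV lay above all 3 of 5NC for each of these 3 genes. Of all tested genes, 7.31% did so with a log2 fold change of at least 0.3. DESeq2 called 742 of all 16395 tested genes in this comparison, and these 3 genes were picked for the smallest p of their lists.

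The same genes are read here beside the other control group, which shares 5NC with that comparison. In 5NC against 3NC the log2 fold changes were -1.04 ± 0.28 for Esx1, -0.76 ± 0.26 for Rxra and -0.49 ± 0.17 for Stra6, none of which passed in edgeR. Group means in 3NC were 17.5 ± 5.56 CPM for Esx1, 20.7 ± 8.003 CPM for Rxra and 5.85 ± 0.841 CPM for Stra6. In 8276KD they were 19.4 ± 3.03 CPM, 30.4 ± 4.98 CPM and 6.17 ± 0.273 CPM, in the same order. The difference between the effects of 8276OV and 8276KD did not pass for Esx1 (1.12 ± 0.39; edgeR, adjusted p = 0.623) or for Stra6 (0.65 ± 0.23; edgeR, adjusted p = 0.638). Rxra was not among the 3 genes of its list with the smallest p for this difference.

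Other genes with the smallest p of their list in 8276OV against 5NC did not pass either. They were Gfra2, a receptor for neurturin, at 0.44 ± 0.15 (edgeR, adjusted p = 0.164), the chemokine receptor gene Ackr3 at 0.34 ± 0.16 and the growth factor receptor gene Igf1r at -0.23 ± 0.11. The retinoic acid receptor gene Rarb was at 0.73 ± 0.39, the DNA methyltransferase gene Dnmt3b at -0.41 ± 0.14 and Tex14, needed for the bridges between germ cells, at -0.17 ± 0.085. In 5NC against 3NC, which shares 5NC with that comparison, Gfra2 was at -0.55 ± 0.15, Ackr3 at -0.55 ± 0.16, Igf1r at 0.28 ± 0.11 and Dnmt3b at 0.44 ± 0.14, and none of them passed in edgeR. In 8276KD against 3NC, Rxra was at 0.55 ± 0.25, Cyp26b1, an enzyme that breaks down retinoic acid, at 0.29 ± 0.11 and Rarb at 0.74 ± 0.39. Between the control groups, Cyp26b1 was at 0.36 ± 0.11 in 5NC against 3NC (edgeR, adjusted p = 0.224). In 8276KD against 3NC, Igf1r was at 0.27 ± 0.11, Ackr3 at -0.37 ± 0.16 and Zfp462 at 0.26 ± 0.12. Shisa6 was at 1.09 ± 0.52, from low levels of 1.28, 0.454 and 0.518 CPM in 8276KD and 0.265, 0.438 and 0.338 CPM in 3NC. Cxcl12, the ligand of CXCR4, was at -0.70 ± 0.40, with 31.9, 53.0 and 13.5 CPM in 3NC. Leaving out single libraries gave -1.07 to -0.17 for Cxcl12. Thy1, a surface marker used to enrich spermatogonial stem cells and carried by T cells too, was at 15.4 CPM in 3NC T2 and at no more than 0.908 CPM in the other 11 libraries, which gave -2.99 ± 1.16 with all libraries and 0.27 ± 0.53 without 3NC T2.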

How the data were processed

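RNA of whole testes from F1 mice was sequenced in 12 libraries, 3 in each of 4 groups. The deposited table gives estimated counts per gene (88.2% of values are whole) and a second deposited value that was read as FPKM, since its ratio to the counts is nearly one length per gene. No header names that unit. The submitters' processing notes name the build mm10. Aligner, counting program, annotation, strand setting and filters: not stated in any source used here, which leaves reads of a gene and of one that overlaps it unseparated. A further 18 per-sample columns name samples that are not analysed here and were left unused. Of 20788 identifiers, 20630 matched the RefSeq gene table of GRCm38.p6, among them all 30 genes, and gene positions and upstream sequences are from RefSeq on that assembly.

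Counts were rounded and tested with edgeR 4.0.16 under R 4.3.3. The filter filterByExpr (minimum count 10) left 16395 genes. TMM scaling was followed by 1 quasi-likelihood fit with robust dispersion over all libraries and 4 group means (common dispersion 0.0388, biological coefficient of variation 19.7%). Adjusted p-values are Benjamini-Hochberg values over all tested genes, with 0.05 as the threshold. Errors of fold changes are standard errors from the fit. Levels are normalised CPM. Alternatives used DESeq2 1.42.0, limma 3.58.1 (voom), other scalings, filters and sets of libraries, the replicate number as a block and a term for the 3 lowest totals. The fit was also run on simulated data with the same dispersion for every gene and no outlying library. That run does not cover changes in genes of few counts or a library such as 3NC T2. Depth was 13485479 to 15771655 counts in a library, and ratios of summed counts carry exact 95% intervals that cover counting error only.

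The 30 genes and the pathway lists were chosen with earlier results of these data known, so no set test and no p adjusted over a list was made. A gene was given full statistics in a comparison where its adjusted or unadjusted p was under 0.05, or where the groups did not overlap with a log2 fold change of at least 0.3 in size. Of each pathway list, the genes that passed were to be named, and where none did, the 3 with the smallest p. For 5NC against 3NC and for the difference of effects, only those that bear on the other comparisons are printed. Overlapping or pseudogene-bearing genes such as Pou5f1 are uncertain.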

Additional observations from a re-analysis of the deposited data

How the results depend on the processing

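Under up to 21 alternatives for each comparison, 12 of which leave out 1 library, 0 of the 25 tested genes passed in any comparison. Rhox13 in 8276OV against 5NC lay between 0.50 and 0.70 (adjusted p 0.123 to 0.534, where one was given), Etv5 between -0.37 and -0.24 (0.108 to 0.625), and Crabp1 in 8276KD against 3NC between 0.43 and 0.91 (0.212 to 0.818). DESeq2 gave no adjusted p for Rhox13 or Pou5f1. Of 44 results for single genes, 35 kept their direction and their side of the threshold throughout, 6 passed under some alternatives, and 3 reversed without 3NC T2. Leaving out single libraries gave -1.06 to 0.18 for Ccnd2 in 8276KD, -0.90 to 0.34 for Ccnd2 in 5NC and -3.52 to 0.27 for Thy1 in 8276KD, all against 3NC, with the upper end of each without 3NC T2.

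The number of all genes called moved more. For 8276OV against 5NC it was 78 and became 742 by DESeq2 (444 higher, 298 lower), 163 with total counts only and 269 with the replicate block. For 8276KD against 3NC it was 3 and became 23 by DESeq2 and 0 with only the groups compared, where 1424 genes were at an unadjusted p below 0.05 in the fit of all groups. For 5NC against 3NC it was 40 and became 305 by DESeq2, 68 with total counts only, 9 with only the groups compared and 6 with the term for the lowest totals. Of these calls 15 were higher and 25 lower (37.5% higher), and with total counts only 34 were higher and 34 lower. For the difference between effects it was 3 and became 53 by DESeq2 and 6 with the replicate block, and fitting only the groups compared gives no value. Leaving out 1 library gave 5 to 521, 1 to 9, 7 to 126 and 3 to 12 genes in these 4 comparisons. For 8276OV against 5NC the most came without 3NC T2 and the fewest without 5NC T3 or 8276OV T1. The medians of the 25 genes then ran from -0.072 to 0.0053 in 8276OV, 0.029 to 0.115 in 8276KD, 0.090 to 0.131 in 5NC and -0.188 to -0.054 for the difference. The causes were not tested.

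Esx1 in 8276OV against 5NC passed by DESeq2 (0.0014), with total counts only (0.0495), with the replicate block (0.035), without 3NC T2 (0.019), 3NC T3 (0.04997) or 8276OV T2 (0.030). Stra6 passed by DESeq2 (0.021), with the block (0.048), without 3NC T2 (0.028) or 8276OV T2 (0.047), and Rxra by DESeq2 (0.0080), with only the groups compared (0.038) and without 3NC T3 (0.021). In 5NC against 3NC, DESeq2 called Gfra2 (0.032) and Esx1 (0.025), and leaving out 3NC T2 or 3NC T3 called Esx1 (0.042) and Rxra (0.044). Deviations of same-numbered libraries from their group means had correlations of -0.12 to 0.31. Differently numbered libraries were not compared in this way, so whether the replicate numbers pair the samples is not known.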
